A study of Mus musculus with 8 samples.

Results

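The upper cortical layer genes Cux1, Cux2, Rorb, Lamp5, Rasgrf2, Calb1 and Lhx2 were selected by gene name from 13996 genes measured in mouse brain cortex, and 7 of 7 were found. RNA sequencing was performed on 4 male C57BL/6 mice on a normal diet and 4 on a high fat diet (HFD), with 1 library per mouse. The high fat diet contained 60% fat by weight and was given for 8 weeks from the age of 8 weeks, so mice of both diets were 16 weeks old. According to the study's methods, the HFD mice were heavier and glucose intolerant by then. Expression was measured as FPKM, a measure that takes account of transcript length and library size, so that the levels of different genes can be compared. FPKM was rounded to 0.1, and its sum per mouse lay between 562431 and 639142. Sequencing depth is not known.

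The neocortex is built of stacked layers of neurons, and the upper layers hold neurons that mainly connect cortical areas with each other and receive thalamic input. Cux1 and Cux2 are Cut-like homeobox transcription factors of upper layer neurons, Rorb is a nuclear receptor that marks the thalamic input layer, and Lhx2 is a LIM homeobox transcription factor of cortical patterning. Lamp5 encodes a lysosome-associated membrane protein of neurons, Rasgrf2 an exchange factor that activates Ras and Rac, and Calb1 the calcium buffer calbindin. Several of these genes are also expressed elsewhere: Calb1 in cerebellar Purkinje cells, striatal neurons and interneurons, and Lamp5 in a class of cortical interneurons. In bulk cortex, fewer cells of a type and less RNA per cell cannot be told apart.

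Markers of cortical projection neurons were present in each library. Slc17a7, the vesicular glutamate transporter of these neurons and the most abundant gene of their list of 8, was between 209.5 and 403.9 FPKM in the 8 mice. The libraries also held markers of other brain regions to differing degrees. The summed FPKM of 8 measured cerebellar genes was 22.0, 260.7, 353.0 and 78.5 in normal mice 1 to 4, and 19.0, 18.6, 16.2 and 19.0 in HFD mice 1 to 4. Normal mice 2 and 3 therefore stood apart. Gabra6, a defining marker of cerebellar granule cells, was 1.7, 46.5, 61.7 and 12.2 FPKM in normal mice 1 to 4. It was listed at 0 in HFD mouse 1 and reached at most 0.2 in the other HFD mice. The summed FPKM of 6 thalamic neuron genes was 38.8, 149.9, 151.9 and 56.7 in normal mice, against 23.5 to 29.7 in HFD mice, again with normal mice 2 and 3 highest. Calb2, the most abundant of these, carried much of it, and without Calb2 the sums were 27.8, 78.7, 68.8 and 20.1 in normal mice 1 to 4 and 16.4 to 19.9 in HFD mice, with normal mouse 4 near the HFD mice. The sum of 11 striatal neuron genes was 493.3, 406.6, 386.7 and 277.1 in normal mice and between 104.8 and 114.3 in HFD mice, so it separated the diets. Results are therefore given with and without normal mice 2 and 3, an alternative chosen after seeing the data.

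Between the diets, Cux2 and Lhx2 were higher and Calb1 was lower in HFD mice. Of the 7 genes, 2 were higher at an adjusted p below 0.05 by limma, where 17.7% of all 13982 genes tested were, and 1 was lower, where 15.3% were. Whether these shares differ was not tested. With a minimum change of 50% added, the counts were again 2 higher (4.23% of all genes) and 1 lower (2.90% of all genes). In 2 genes each HFD value exceeded each normal value (17.2% of all genes), and in 1 gene each HFD value was below (14.7% of all genes). Cux1, Rorb, Lamp5 and Rasgrf2 did not pass the adjusted threshold. All 7 genes were within the filter on low FPKM in both diets.

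**Figure D1:**
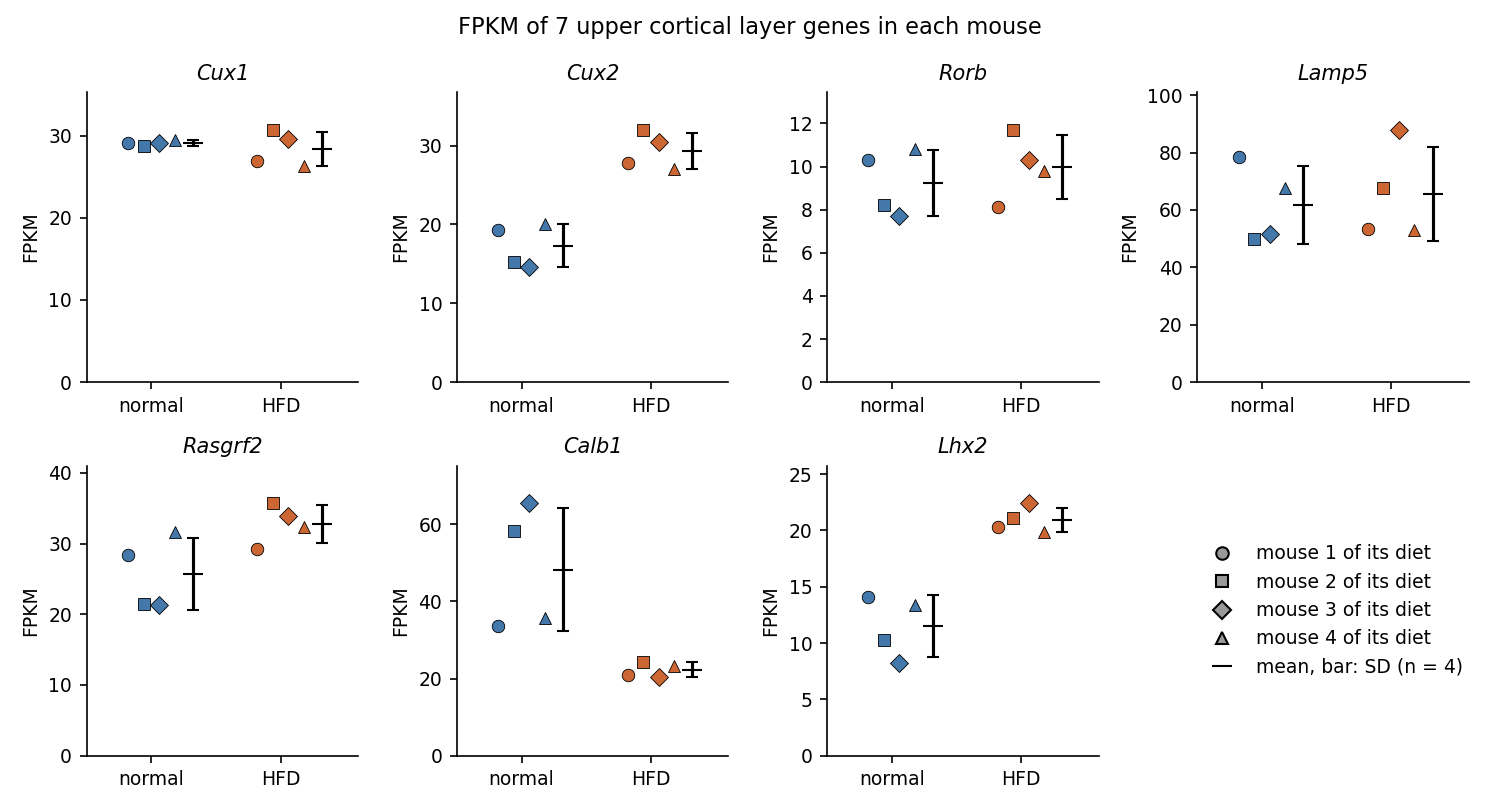
FPKM of the 7 upper layer genes in each mouse, by diet, with marker shapes for mice 1 to 4 of a diet and the mean ± SD (n = 4) beside them. Cux2 and Lhx2 were higher in each HFD mouse than in any normal mouse and Calb1 was lower, whereas the diets overlapped in Cux1, Rorb, Lamp5 and Rasgrf2.

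Cux1 and Cux2 are close relatives with different values in these mice, and the windows around their annotated starts are shown for that reason. Cux1 spans 319.4 kb of chromosome 5 (136248135 to 136567490, minus strand, GRCm38) and Cux2 193.7 kb of the same chromosome (121856366 to 122050102, minus strand). GENCODE lists 14 transcripts of Cux1, 9 of them protein coding, and 11 of Cux2, 5 of them protein coding, and the FPKM of a gene pools them. RefSeq (GRCm38.p6) gave a start window for 6 of the 7 genes and none for Calb1, with 250 bases before and 50 after a start. The windows were searched on both strands for the GC box (GGGCGG), the TATA box (TATAAA), the Cut homeodomain site (ATCGAT), the LIM homeodomain site (TAATTA), the ROR site (AGGTCA) and the CCAAT box (the letters of its name), and matches are in capitals.
Cux1, chr5:136565932-136566231, minus strand: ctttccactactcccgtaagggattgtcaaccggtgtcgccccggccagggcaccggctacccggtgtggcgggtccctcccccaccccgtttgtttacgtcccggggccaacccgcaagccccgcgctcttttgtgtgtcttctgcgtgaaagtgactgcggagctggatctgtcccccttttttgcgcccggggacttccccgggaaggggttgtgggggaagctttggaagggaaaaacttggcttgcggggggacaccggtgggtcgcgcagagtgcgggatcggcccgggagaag
Cux2, upstream start, chr5:122049802-122050101, minus strand: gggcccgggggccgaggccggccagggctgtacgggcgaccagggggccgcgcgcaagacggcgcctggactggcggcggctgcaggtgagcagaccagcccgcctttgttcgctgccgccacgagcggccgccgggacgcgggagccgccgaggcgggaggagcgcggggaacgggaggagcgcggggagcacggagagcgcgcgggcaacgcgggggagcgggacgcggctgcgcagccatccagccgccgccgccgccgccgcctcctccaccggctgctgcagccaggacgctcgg
Cux2, internal start, chr5:122047776-122048075, minus strand: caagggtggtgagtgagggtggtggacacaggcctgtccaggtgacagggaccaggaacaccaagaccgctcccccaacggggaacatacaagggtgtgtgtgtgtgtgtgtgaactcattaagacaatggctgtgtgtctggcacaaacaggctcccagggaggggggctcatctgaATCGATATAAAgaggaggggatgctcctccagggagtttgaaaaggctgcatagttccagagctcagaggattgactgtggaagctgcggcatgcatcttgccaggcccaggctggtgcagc
The window of Cux1 and that of the upstream Cux2 start held none of these letters. The internal Cux2 start held ATCGAT, the letters bound by Cut homeodomain proteins, from 72 bases before the start, overlapping TATAAA from 67 bases before it in its last base. Of 32851 windows of this length, 0.925% held ATCGAT and 13.6% held TATAAA, and the LIM homeodomain and ROR sites occurred in none of the 10 member windows (5.29% and 16.3% of all). The CCAAT box (37.4% of all) occurred at the upstream starts of Rorb and Lamp5. A match describes letters, not a bound site.

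Cux1 was 29.1, 28.7, 29.1 and 29.5 FPKM in normal mice 1 to 4 and 26.9, 30.7, 29.6 and 26.3 in HFD mice 1 to 4. The normal mice were almost alike, with a coefficient of variation of 1.12%, and lay within the range of the HFD mice. Its log2 fold change was -0.04 (95% interval -0.16 to 0.09, adjusted p = 0.614 by limma). Normal mice 2 and 3 did not differ from normal mice 1 and 4 in Cux1 by more than 0.8 FPKM, although they did in each other member.

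Cux2 was 19.3, 15.3, 14.6 and 20.1 FPKM in normal mice 1 to 4 and 27.8, 32.0, 30.5 and 27.0 in HFD mice 1 to 4. Each HFD mouse was above each normal mouse, and normal mice 2 and 3 were the lowest. The means were 17.3 ± 2.78 and 29.3 ± 2.33 (SD, n = 4), which is 0.77 in log2 (SE 0.11, adjusted p = 0.0014 by limma), or 1.70-fold. With normal mice 2 and 3 left out, Cux2 was at 0.57 (SE 0.08, adjusted p = 0.00508), so a difference between the diets was also present in the remaining mice.

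Lhx2 spans 30.45 kb of chromosome 2 (38339281 to 38369733, plus strand). Its upstream start window is shown because Lhx2 had the largest increase among the 7 genes:
Lhx2, upstream start, chr2:38339031-38339330, plus strand: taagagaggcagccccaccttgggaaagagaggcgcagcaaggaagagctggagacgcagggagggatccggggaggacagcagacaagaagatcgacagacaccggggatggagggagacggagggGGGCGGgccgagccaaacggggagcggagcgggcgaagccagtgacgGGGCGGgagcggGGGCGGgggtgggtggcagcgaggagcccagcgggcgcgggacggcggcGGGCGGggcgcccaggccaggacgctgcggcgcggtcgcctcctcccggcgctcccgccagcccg
The capitals mark 4 matches of GGGCGG, the GC box, which 35.7% of all windows hold at least once. Among the members, this motif was found at the upstream starts of Lhx2 and Rorb. In expression, Lhx2 was 14.1, 10.3, 8.2 and 13.4 FPKM in normal mice 1 to 4 and 20.3, 21.1, 22.4 and 19.9 in HFD mice 1 to 4. The diets did not overlap, the HFD mice lay close together, and normal mice 2 and 3 were again lowest. The mean was 11.5 ± 2.75 in normal and 20.9 ± 1.10 in HFD mice (SD, n = 4), and HFD exceeded normal by 0.89 in log2 (SE 0.15, adjusted p = 0.00285 by limma), or 1.85-fold. It was 0.60 (SE 0.06, adjusted p = 0.00257) without normal mice 2 and 3.

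Rorb spans 180.6 kb of chromosome 19 (18930605 to 19111196, minus strand) and had the lowest level of the 7 genes in both diets. Its FPKM was 10.3, 8.2, 7.7 and 10.8 in normal mice 1 to 4 and 8.1, 11.7, 10.3 and 9.8 in HFD mice 1 to 4. The diets overlapped widely, with the lowest values in normal mice 2 and 3 and HFD mouse 1. The log2 fold change was 0.11 (95% interval -0.19 to 0.41, adjusted p = 0.557 by limma), and it was -0.092 (adjusted p = 0.647) without normal mice 2 and 3.

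Calb1, on chromosome 4 (15881264 to 15908064, plus strand), was 33.6, 58.3, 65.4 and 35.7 FPKM in normal mice 1 to 4 and 20.9, 24.4, 20.3 and 23.3 in HFD mice 1 to 4. Each HFD mouse was below each normal mouse, and normal mice 2 and 3, the lowest in Cux2 and Lhx2, were the highest in Calb1. The mean was 48.2 ± 16.0 in normal and 22.2 ± 1.95 in HFD mice (SD, n = 4). This is -1.06 in log2 (SE 0.20, adjusted p = 0.00457 by limma), so the level in HFD mice was 0.48 times that in normal mice. It shrank to -0.64 (SE 0.08, adjusted p = 0.00448) without normal mice 2 and 3. The cerebellar, thalamic and striatal sums given above were higher in the normal mice, and Calb1 is also expressed in neurons of these regions. Their part in the Calb1 result was not tested.

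Lamp5 had the highest mean of the 7 genes in both diets, with 78.4, 49.8, 51.6 and 67.6 FPKM in normal mice 1 to 4 and 53.5, 67.5, 87.9 and 53.0 in HFD mice 1 to 4. The spread within a diet exceeded the difference between diets, and the highest mouse, HFD mouse 3, was 1.66 times HFD mouse 4. Normal mice 2 and 3 were the lowest of all mice, with HFD mice 1 and 4 close above them. Its log2 fold change was 0.08 (95% interval -0.34 to 0.50, adjusted p = 0.778 by limma), an interval that includes a 1.41-fold increase. Leaving out normal mouse 2, normal mouse 3 or HFD mouse 3 turned the sign, and the values for each mouse left out lay between -0.076 and 0.20.

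Rasgrf2 was 28.4, 21.5, 21.3 and 31.6 FPKM in normal mice 1 to 4 and 29.3, 35.7, 33.9 and 32.3 in HFD mice 1 to 4. HFD mouse 1 lay below normal mouse 4, so the diets overlapped, while normal mice 2 and 3 were clearly lower than the other 6 mice. Rasgrf2 was at 0.37 in log2 (SE 0.13, adjusted p = 0.0509 by limma), just short of the threshold. Rasgrf2 passed it without normal mouse 1 (0.42, adjusted p = 0.0421) or normal mouse 4 (0.47, adjusted p = 0.0118), and where only genes averaging 5 FPKM or more were tested (adjusted p = 0.0474). Without normal mice 2 and 3 the value was 0.13 (95% interval -0.07 to 0.32, adjusted p = 0.316).

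**Figure D2:**
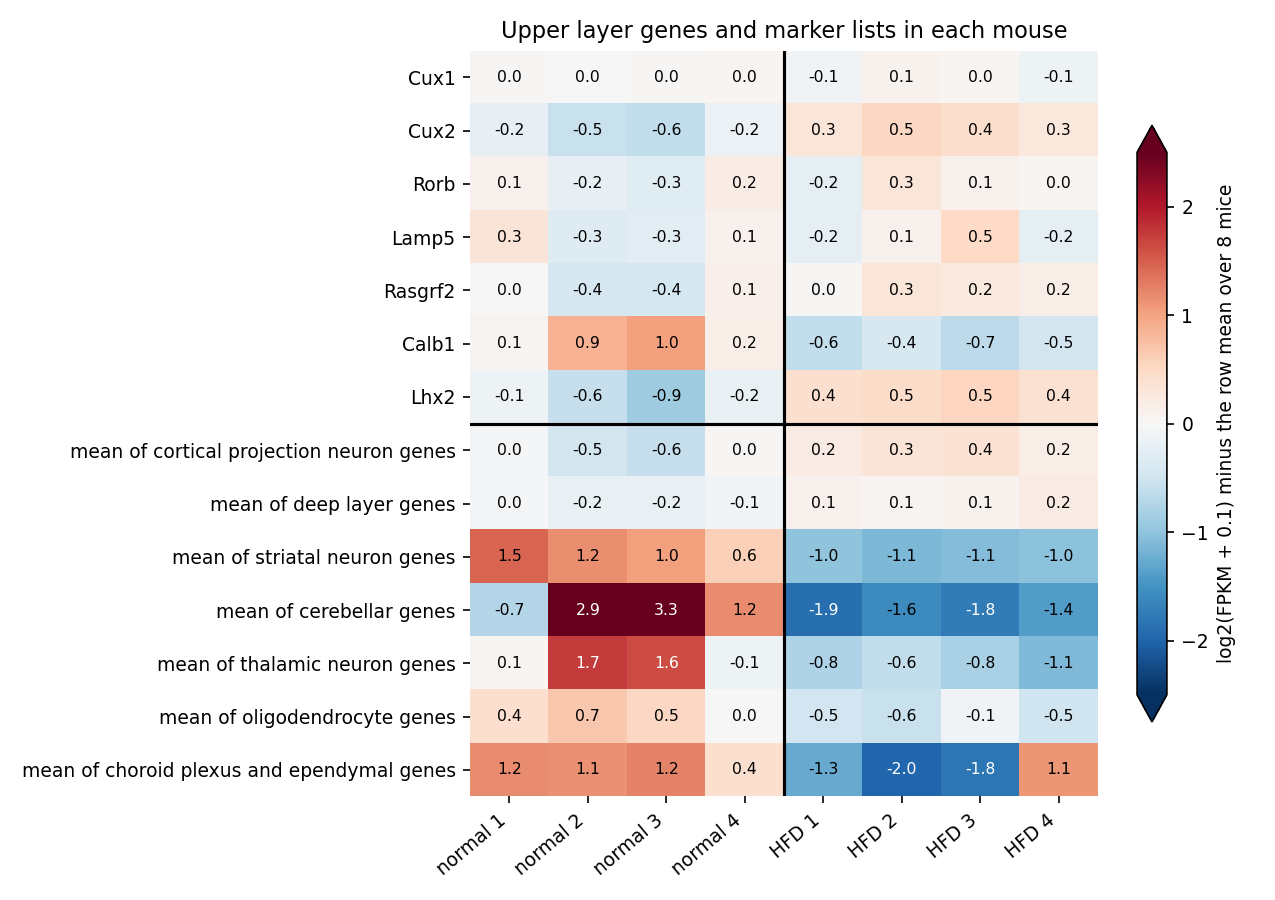
log2(FPKM + 0.1) of the 7 genes, and mean log2(FPKM + 0.1) of 7 marker lists, in each of the 8 mice (columns), as the difference from the row's mean over the mice. Normal mice 2 and 3 combine low Cux2, Rorb, Lamp5, Rasgrf2 and Lhx2 and high Calb1 with the highest cerebellar and thalamic means. Rorb is also low in HFD mouse 1, and Lamp5 in HFD mice 1 and 4. The striatal means separate the diets.

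The order of the 7 levels differed between the diets. In normal mice the means fell from Lamp5 (61.9) through Calb1 (48.2), Cux1 (29.1), Rasgrf2 (25.7), Cux2 (17.3) and Lhx2 (11.5) to Rorb (9.25), in FPKM. The ranges of the neighbours Lamp5 and Calb1, Cux1 and Rasgrf2, and Lhx2 and Rorb overlapped there. In HFD mice the order was Lamp5 (65.5), Rasgrf2 (32.8), Cux2 (29.3), Cux1 (28.4), Calb1 (22.2), Lhx2 (20.9) and Rorb (9.97). Here the ranges of Rasgrf2 and Cux2, Cux2 and Cux1, and Calb1 and Lhx2 overlapped. Calb1 thus stood above Cux1, Rasgrf2 and Cux2 in normal mice and below them in HFD mice.

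Ratios between members within a mouse do not depend on how the libraries are scaled, and 6 of them were chosen after the values were seen. Cux2 over Cux1 was 0.663, 0.533, 0.502 and 0.681 in normal mice 1 to 4 and 1.03, 1.04, 1.03 and 1.03 in HFD mice 1 to 4. The 2 genes were thus at nearly equal levels in each HFD mouse, and Cux2 was below Cux1 in each normal mouse. Rorb over Cux2 was 0.534, 0.536, 0.527 and 0.537 in normal mice 1 to 4, although each gene alone varied by a coefficient of over 16%. In HFD mice it was lower and less even, at 0.291, 0.366, 0.338 and 0.363. Lhx2 over Cux2, the genes that rose, overlapped between the diets, at 0.562 to 0.731 in normal and 0.659 to 0.737 in HFD mice. Rasgrf2 over Cux2 and Lamp5 over Cux2 were lower in each HFD mouse than in any normal mouse, with means of 1.12 against 1.48 and 2.22 against 3.55. Calb1 over Cux2 ranged from 1.74 to 4.48 in normal and from 0.666 to 0.863 in HFD mice.

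**Figure D3:**
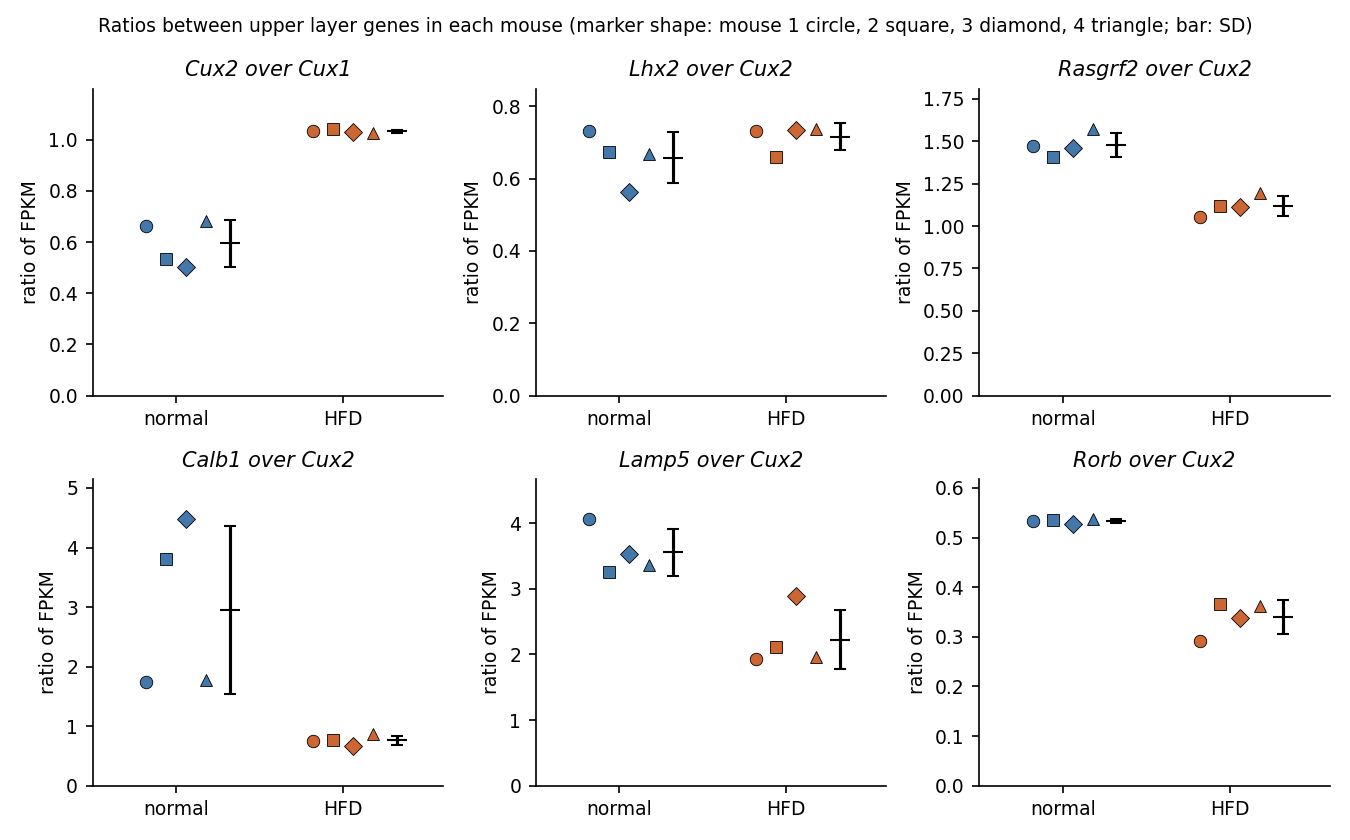
Ratio of the FPKM of 2 upper layer genes within each mouse, by diet, with the mean ± SD (n = 4). Cux2 over Cux1 lies near 1.03 in the 4 HFD mice and at most at 0.681 in the normal mice, Rorb over Cux2 is nearly the same in the 4 normal mice, and Lhx2 over Cux2 is the only ratio of the 6 in which the diets overlap.

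Because other cortical neuron genes also differed between the diets, the members were set against the 8 cortical projection neuron genes. The mean log2(FPKM + 0.1) of this list was 4.78, 4.37, 4.26 and 4.86 in normal mice 1 to 4 and 5.03, 5.15, 5.19 and 4.99 in HFD mice 1 to 4. It was higher in each HFD mouse and lowest in normal mice 2 and 3, as were Cux2 and Lhx2. Scaling each mouse to this mean shifted the median log2 fold change of all genes by -0.52, so fold changes on this scale are relative to these neurons. On it, 1 of the 7 members, Lhx2, was higher by limma (0.722% of 13982 genes) and 4 were lower (64.9%). Lhx2 was at 0.36 (SE 0.14, adjusted p = 0.0309). Cux2, at 0.24 (SE 0.13, adjusted p = 0.112), no longer passed, although its 4 scaled HFD values still lay above the 4 normal ones. Calb1 was at -1.58 (adjusted p = 0.000815), Cux1 at -0.56 (adjusted p = 0.00657), Lamp5 at -0.45 (adjusted p = 0.0177) and Rorb at -0.41 (adjusted p = 0.0261). Rasgrf2 turned to -0.16 (adjusted p = 0.295). The scaling shifts all genes alike, so positions relative to the median of all genes were the same as before scaling. Cux2, Lhx2 and Rasgrf2 lay above this median in both fits, Rorb, Lamp5 and Cux1 nearer to it, and Calb1 below it.

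With normal mice 2 and 3 left out, 2 members were higher by limma (11.0% of 13904 genes) and 1 was lower (8.67%), Cux2, Lhx2 and Calb1 as before. With both changes made together, 2 members were higher (2.00% of 13904 genes) and 4 were lower (39.2%). Cux2 was then at 0.30 (adjusted p = 0.0165), Lhx2 at 0.33 (adjusted p = 0.0141) and Calb1 at -0.91 (adjusted p = 0.00104). The remaining normal mice 1 and 4 still had higher striatal neuron and cerebellar sums than any HFD mouse, and the part of this in the results was not tested.

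**Figure D4:**
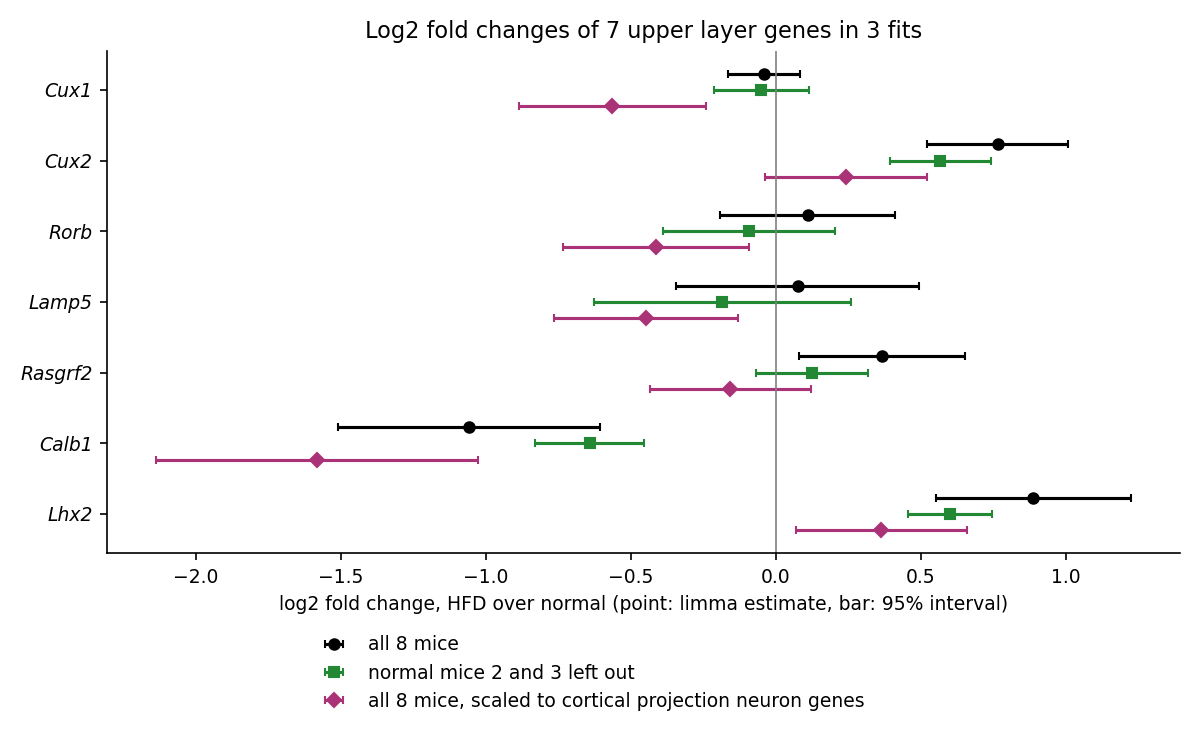
Log2 fold change of the 7 genes between HFD and normal mice (point) with its 95% interval (bar) from limma, for all 8 mice, with normal mice 2 and 3 left out, and for all mice scaled to the cortical projection neuron genes. Calb1 lies below 0 and Lhx2 above 0 in the 3 fits, and the interval of Cux2 reaches 0 after scaling. Scaling shifts all genes alike by -0.52, which puts Rorb, Lamp5 and Rasgrf2 below 0. Rorb and Lamp5 also lie below 0 with normal mice 2 and 3 left out.

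Other genes of the same layers differed from each other in direction, as the members did. Of 12 other layer 2/3 genes, 5 were higher (17.7% of all genes) and 1 was lower (15.3% of all genes) in HFD mice. Their median log2 fold change was 0.23, against 0.11 for the 7 members and 0.00 for all genes. These medians were 0.079, -0.049 and 0.0079 without normal mice 2 and 3. Wfs1, the wolframin gene, rose by 0.80 (adjusted p = 0.00701 by limma), and Kitl, the Kit ligand, was at -0.49 (adjusted p = 0.0044). Otof, Pou3f1, Unc5d and Lmo4, the most abundant, were at 0.65, 0.51, 0.47 and 0.40. Of these, Lmo4 (adjusted p = 0.0441) was no longer called with no variance trend, with the replicate block (adjusted p = 0.0921) or with any of 6 single mice left out, and Pou3f1 (adjusted p = 0.0497) already without the filter on low FPKM. Otof was not called with the block (adjusted p = 0.0536) or with any of 3 single mice left out, and Unc5d not with any of 2. Of 5 other layer 4 genes, Rspo1, Whrn and Plxnd1 were higher (0.66, 0.49 and 0.61), Thsd7a was lower (-0.56, adjusted p = 0.00158), and Kcnh5, the most abundant, was at 0.13. Rspo1 was not called with the block (adjusted p = 0.0846) or with any of 5 single mice left out. Without normal mice 2 and 3, 0 of the 12 layer 2/3 genes were higher by limma and 1 was lower, Kitl at -0.32. Wfs1, at 0.73 (adjusted p = 0.0516), and Otof, at 0.65 (adjusted p = 0.0519), fell just short with larger values than Cux2 and Lhx2. Lmo4 was at 0.15, Pou3f1 at 0.27 and Unc5d at 0.32 in that fit. Of the 5 layer 4 genes, 2 were then higher, Plxnd1 (0.44, adjusted p = 0.00975) and Whrn (0.59, adjusted p = 0.0135), and 1 was lower, while Rspo1 was at 0.38 (adjusted p = 0.23). After scaling to cortical projection neuron genes, 0 of the layer 2/3 genes were higher and 4 lower, and 0 of the layer 4 genes were higher and 2 lower, where 0.722% of all genes were higher and 64.9% lower.

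In the fit of all 8 mice, more genes of the deep layer and cortical projection neuron lists were higher than lower. Of all genes tested, 17.7% were higher and 15.3% lower, and whether the shares of these lists differ from that was not tested. Of 13 deep layer genes, 5 were higher and 2 lower, with a median of 0.27. Fezf2, a transcription factor of layer 5 neurons, rose by 1.23 (adjusted p = 0.00141 by limma), more than any member. It was at 0.92 and still called without normal mice 2 and 3. Sulf1 and Foxp2 were the 2 lower, at -0.75 and -0.63, and they were at -0.70 (adjusted p = 0.109) and -0.44 (adjusted p = 0.14), no longer called, without normal mice 2 and 3. The call of Sulf1 also ended with any of 4 single mice left out, and that of Foxp2 with 1. In that fit of fewer mice, 6 of 12 deep layer genes were higher (11.0% of all genes) and 0 lower (8.67% of all genes). Crym, the most abundant deep layer gene, was at 0.25 in all 8 mice (adjusted p = 0.185 by limma). It was at 0.093 (adjusted p = 0.702) without normal mice 2 and 3. With the replicate block, Crym was called (adjusted p = 0.0202). Scaled to cortical projection neuron genes, 1 deep layer gene was higher (0.722% of all genes) and 4 were lower (64.9% of all genes). The median of the deep layer genes was then -0.26, against -0.52 for all genes. Of 8 cortical projection neuron genes, 5 were higher and 0 lower, with a median of 0.43, among them Slc17a7 at 0.49, Emx1 at 0.68 and Tbr1 at 1.04. Without normal mice 2 and 3, 3 of them were higher and the median was 0.22. Emx1 was then at 0.32 and Tbr1 at 0.70, both still called by limma, and Slc17a7, at 0.24 (adjusted p = 0.0818), was no longer called. The call of Slc17a7 also ended with the block (adjusted p = 0.0516) and with any of 2 single mice left out. The difference between the upper layer members and these lists was not tested.

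**Figure D5:**
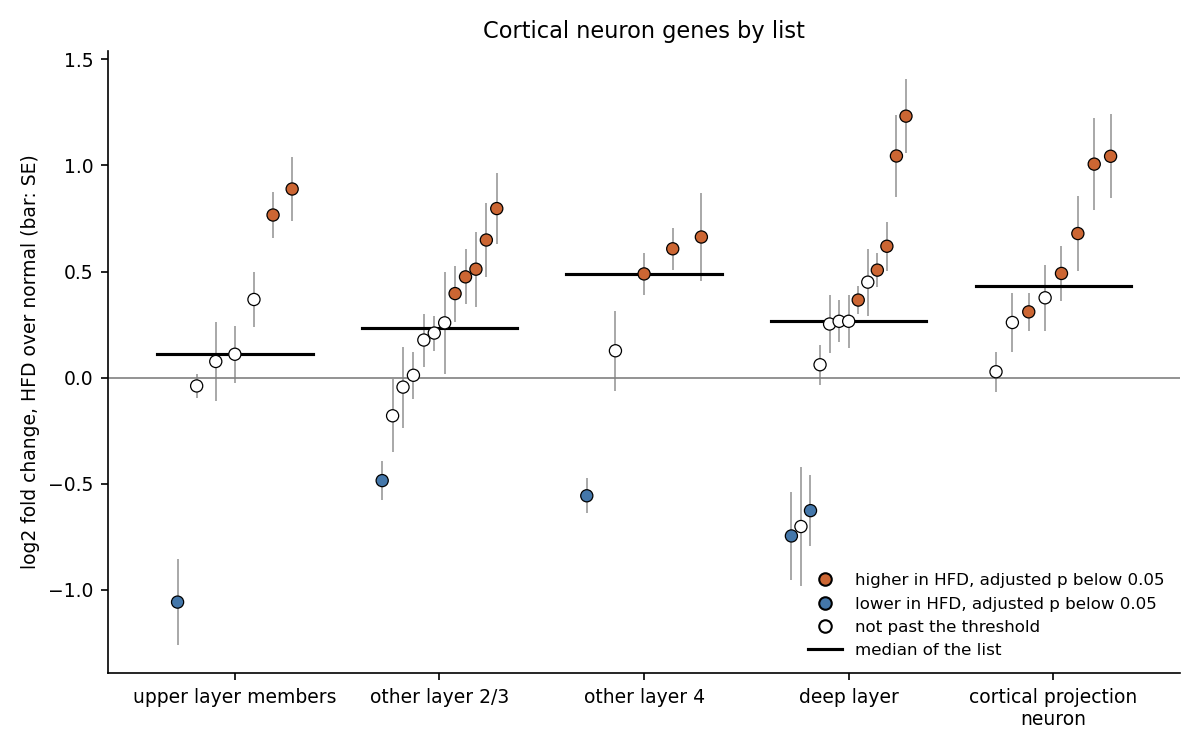
Log2 fold change (HFD over normal, bar: SE from limma) of the upper layer members and of the measured genes of 4 other lists, one point per gene, filled where the adjusted p was below 0.05. Each list but the cortical projection neuron genes holds genes called in both directions, and the medians (lines) lie between 0.11 and 0.49.

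For each member, the 2 genes with the most similar profile were taken out of 9641 that averaged 5 FPKM or more, by the root mean square difference of mean-centred log2(FPKM + 0.1) over the 8 mice. For Cux2 these were Hivep1 (0.050) and Foxk1 (0.056), at log2 fold changes of 0.77 and 0.76, and for Lhx2 they were Dkk3 (0.0615) and Cckbr (0.085), at 0.86 and 0.95. For Calb1 they were Stk17b (0.12) and Tmem163 (0.14), and their FPKM was likewise highest in normal mice 2 and 3. As the genes were picked for their likeness over these same mice, such shared patterns and fold changes follow from the choice. Cux1 was nearest to Stx3 (0.016) and Irf2bp2 (0.027), Rorb to Csgalnact1 (0.079) and Cdh6 (0.082), Lamp5 to Kcnh5 (0.086) and Cpne5 (0.094), and Rasgrf2 to Camk1d (0.048) and Slc39a10 (0.051). Kcnh5 is one of the other layer 4 genes.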

How the data were processed

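Cortex libraries of 4 normal and 4 HFD mice were grouped by sample title. FPKM were deposited by the authors, who used Trimmomatic, STAR (mm10) and Cuffnorm (GENCODE M17). Libraries were made with a stranded kit, but whether counting used strand is not stated. Antisense genes overlap Cux1, Cux2 and Lhx2, whose FPKM would hold antisense reads if it did not.

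log2(FPKM + 0.1) was compared with limma 3.58.1 in R 4.3.3 (two-sided, trended variance). P values were adjusted by Benjamini-Hochberg over the 13982 genes averaging 1 FPKM or more and never 0. Calls required an adjusted p below 0.05. Adding 0.1 understates changes of low genes. Python 3.11.15 made summaries and figures. Coordinates come from GENCODE M21 (GRCm38) and start windows from RefSeq.

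The members and 16 marker lists were chosen with earlier results of these data known. Named genes are the members, the most abundant gene and the largest called change each way of each list, any gene of the lists of layer 2/3, layer 4, deep layer and cortical projection neuron genes, and the 2 genes most similar to each member. Gabra6 was named after its values were seen, for its 0. Alternatives were another added constant, other filters and scalings, no variance trend, replicate blocks, and each mouse left out. Leaving out normal mice 2 and 3, alone or with scaling to cortical projection neuron genes, was chosen after seeing the data.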

Additional observations from a re-analysis of the deposited data

Results flagged for a closer look

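In 48 groups of 4 mice (each diet for the 7 members and the summed FPKM of 17 gene lists, the members' own sum included), a value far from the other 3 was found in 4 groups, where chance gives about 1 in 20. It was found in 0 of the 14 groups of single members. The summed FPKM of choroid plexus and ependymal genes was 935.5 in HFD mouse 4, against 21.6 to 76.8 in the other HFD mice. Ttr, the most abundant gene of the list, was 920.7 in that mouse and 18.6 to 73.4 in the others. In the members HFD mouse 4 did not stand apart, and without it Cux2 was at 0.80, Lhx2 at 0.91 and Calb1 at -1.08. The sum of oligodendrocyte genes was 2029.7 in HFD mouse 3, against 1461.8 to 1518.9 in the other HFD mice. The same mouse had the highest Lamp5, and without it Lamp5 was at -0.08. The sum of cerebellar genes was 16.2 in HFD mouse 3, below 18.6 to 19.0 in the others. The sum of astrocyte genes was 1231.5 in HFD mouse 1, against 1161.5 to 1172.2.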

How the results depend on the processing

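Calb1 and Lhx2 kept their direction and their side of the threshold under the 18 alternatives, and Cux2 under 17. Scaling to cortical projection neuron genes shifts the median of all genes by construction. Under it Cux2 fell short at 0.24 and Cux1 passed at -0.56. Rorb (-0.41), Lamp5 (-0.45) and Rasgrf2 (-0.16) turned sign, as did Lmo4 (-0.13), Whrn (-0.035), Kcnh5 (-0.40), Slc17a7 (-0.033), Csgalnact1 (-0.39), Cdh6 (-0.46), Cpne5 (-0.46), Camk1d (-0.14), Slc39a10 (-0.21), Pou3f1 (-0.013), Crym (-0.27), Slc1a2 (-0.27), Sst (-0.38) and Unc5d (-0.049). Members called were 1 higher and 4 lower, and all genes called were 101 higher and 9072 lower, a share of higher calls of 1.10% against 53.6%.

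Without normal mice 2 and 3, chosen after seeing the data, calls among all genes fell from 2480 to 1530 higher and from 2146 to 1206 lower, with fewer samples. Rorb (-0.092), Lamp5 (-0.18), Kcnh5 (-0.20), Csgalnact1 (-0.10), Cdh6 (-0.16), Cpne5 (-0.17), Sst (-0.043) and Aldoc (0.011) turned sign. With both changes, Cux1 was at -0.32, Rorb at -0.36, Lamp5 at -0.46, Rasgrf2 at -0.15, Lmo4 at -0.12, Kcnh5 at -0.47, Slc17a7 at -0.032, Csgalnact1 at -0.38, Cdh6 at -0.43, Cpne5 at -0.44, Camk1d at -0.080, Slc39a10 at -0.17, Pou3f1 at -0.0023, Crym at -0.18, Slc1a2 at -0.16 and Sst at -0.32. Then 2 members were higher and 4 lower, with 278 and 5457 of all genes, and higher calls made up 4.85%.

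With each mouse left out in turn, Cux1 lay between -0.08 and 0.00, Cux2 between 0.69 and 0.84, Rorb between 0.03 and 0.21, Lamp5 between -0.076 and 0.20, Rasgrf2 between 0.29 and 0.47, Calb1 between -1.21 and -0.89 and Lhx2 between 0.74 and 1.00. Kcnh5 lay between -0.0021 and 0.26, Cdh6 between -0.028 and 0.15 and Cpne5 between -0.046 and 0.16. Calls ranged from 1796 to 2475 higher and 1473 to 2143 lower, and members higher from 2 to 3. Rasgrf2, at 0.37, passed among genes averaging 5 FPKM or more, where fewer genes were tested and 3 members were higher. Among named genes other than members, 103 of the alternative values were weaker, 16 stronger, 37 turned and 843 the same. The cause of the changes was not tested.

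With the replicate number as a block, Cux2 (0.77, adjusted p = 0.0126), Lhx2 (0.89, adjusted p = 0.0146) and Calb1 (-1.06, adjusted p = 0.0136) were still called, and 1840 genes were higher and 1550 lower. The numbers carry no stated pairing, and the deviations of same-numbered mice correlated at -0.04, -0.03, -0.11 and -0.07 over 13982 genes.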

Other observations

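Of 8 measured close relatives of the members, 2 were higher (17.7% of all genes) and 3 lower (15.3% of all genes) in HFD mice. Their median log2 fold change was -0.29. In the fit without normal mice 2 and 3, 3 were higher (11.0% of all genes) and 1 lower (8.67% of all genes). The median was then 0.076. Whether these shares differ from those of all genes was not tested. Satb1, a chromatin organizer, rose by 1.04 (adjusted p = 0.000979 by limma), from a mean of 25.9 to 52.9 FPKM, and each HFD mouse was above each normal mouse. Calb2, which encodes calretinin, the relative of the calbindin of Calb1, and is also in the thalamic list, was at -2.16 (adjusted p = 0.0142). Its FPKM was 11.0, 71.2, 83.1 and 36.6 in normal mice 1 to 4 and 7.1 to 10.9 in HFD mice, so it was highest in normal mice 2 and 3, as Calb1 was. Without these mice Calb2 was at -1.19 (adjusted p = 0.0763 by limma) and was no longer called. Calb1 was still called in that fit, with a smaller change of -0.64. The difference between Calb1 and Calb2 was not tested. Lamp1, the most abundant relative, was at -0.30 (adjusted p = 0.0114), or -0.18 and still called without normal mice 2 and 3, whereas Lamp5 was at 0.08.

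Of 12 interneuron genes, 3 were higher (17.7% of all genes) and 5 lower (15.3% of all genes). Sst, the most abundant, was at 0.15 (adjusted p = 0.32 by limma). Vip, a peptide of one interneuron class, rose by 0.65 (adjusted p = 0.0128), or by 0.35 without normal mice 2 and 3, and Pvalb, the calcium buffer parvalbumin, was at -1.07 (adjusted p = 0.0367). Pvalb was 50.1, 140.3, 145.8 and 60.5 FPKM in normal mice 1 to 4 and 33.4 to 55.6 in HFD mice, and it was at -0.39 (adjusted p = 0.157) without normal mice 2 and 3, where Calb1 was at -0.64 and still called. The call of Pvalb also ended with no variance trend and with any of 5 single mice left out.

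Of the genes of other regions and cell types tested by limma, all 11 striatal neuron genes, 5 of 7 cerebellar, 2 of 5 thalamic, 3 of 4 hippocampal, all 8 oligodendrocyte, 2 of 4 choroid plexus and ependymal, all 5 blood and 1 of 4 endothelial genes were lower in HFD mice, and 0 were higher. Among all genes tested, 15.3% were lower and 17.7% higher. Without normal mice 2 and 3, the lower genes were all 11 striatal, 3 of 5 cerebellar, 1 of 5 thalamic, 1 of 4 hippocampal, 6 of 8 oligodendrocyte, 1 of 4 choroid plexus and ependymal, 0 of 5 blood and 2 of 4 endothelial genes. In that fit 8.67% of all genes were lower. Among the calls that ended in this fit of fewer mice, Fibcd1 was then at -0.86, Alas2 at -0.66, Mbp at -0.51 and Hbb-bs at -0.47. Penk, the most abundant striatal gene, was at -3.24 (adjusted p = 4.9e-05), Adora2a at -4.07, Cbln3 at -5.19 and Prkcd at -2.37, or -1.45 and still called without normal mice 2 and 3. Folr1, of the choroid plexus, was 7.1, 6.6, 5.9 and 3.6 FPKM in normal mice 1 to 4 and 0.6, 0.3, 0.3 and 7.2 in HFD mice 1 to 4, so HFD mouse 4 was the highest of all. It was at -2.59 (adjusted p = 0.0352), and the call ended with no variance trend, with the replicate block (adjusted p = 0.0636) and without normal mice 2 and 3, where Folr1 was about as large (-2.44, adjusted p = 0.149). Cbln1, the most abundant cerebellar gene, was at -1.62 (adjusted p = 0.0989), and at -0.29 (adjusted p = 0.662) without normal mice 2 and 3. With normal mouse 1 left out the decrease of Cbln1 was larger and was called, and with any other single mouse left out it was not called. In the hippocampal list Zbtb20 was at -0.35 and Fibcd1 at -0.79, a call that ended with no variance trend and with any of 6 single mice left out. In the oligodendrocyte list Mbp was at -0.77 and Mog at -0.95, in the blood list Hbb-bs was at -0.69 and Alas2 at -0.77, and Cldn5, of endothelial cells, was at -0.40. Ttr was at -2.85 (adjusted p = 0.059), with HFD mouse 4 high. With that mouse left out the decrease of Ttr was larger and was called, and with any other single mouse left out it was not called. Of 7 astrocyte genes, Slc1a2 was higher (0.25, adjusted p = 0.0393) and 2 were lower, Aqp4 the most (-0.88, adjusted p = 0.00348, and -0.57 and still called without normal mice 2 and 3), while Aldoc, the most abundant, was at -0.15. Slc1a2 was at 0.11 (adjusted p = 0.25) and no longer called without normal mice 2 and 3, and its call also ended with no variance trend, with the replicate block (adjusted p = 0.0829) and with any of 5 single mice left out. By limma 0 of 6 microglia genes passed, with C1qa at -0.098. The part of these genes in the results for the members was not tested.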
